A study of Schizosaccharomyces pombe with 2 samples.

Results

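The genes of 7 small stable RNAs were examined for binding of Cnd2 on mitotic chromosomes of fission yeast (Schizosaccharomyces pombe). They are snu1, snu2, snu4, snu5 and snu6, which encode the U1, U2, U4, U5 and U6 small nuclear RNAs (snRNAs), srp7, which encodes the signal recognition particle RNA, and rrk1, which encodes the RNase P RNA. They were taken by name, out of 12606 genes annotated on chromosomes I, II and III, and each was matched to a peak whose summit lay inside the gene or within 500 bp of it. Cnd2 is the kleisin subunit that closes the ring of condensin, the complex that compacts chromosomes for mitosis. Binding was measured by chromatin immunoprecipitation and sequencing (ChIP-seq). Strain YUK421, which carries Cnd2 with an HA tag, was held in mitosis with 5 µg/mL thiamine, and chromatin was fixed for 30 min at 25 °C in 0.5% formaldehyde. The groups were 1 library of anti-HA ChIP (25933013 fragments kept) and 1 library of its input (54272630 kept), both from that same tagged and arrested strain. With 1 library a group, nothing here could be checked against replicates, and no test was made across genes. An untagged strain and cycling cells were not analysed here.

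The snRNAs are the RNA cores of the spliceosome. U1 recognises the 5′ splice site and U2 the branch point. U4 holds U6 in an inactive pairing until U6 enters the catalytic centre, and U5 aligns the exons. The signal recognition particle RNA scaffolds the particle that brings ribosomes to the endoplasmic reticulum, and the RNase P RNA is the catalytic part of the enzyme that trims the 5′ ends of tRNAs. RNA polymerase II reads the genes of U1, U2, U4 and U5. RNA polymerase III reads those of U6 and of the signal recognition particle RNA, often with the help of a B box inside the transcribed region, which the factor TFIIIC binds, and it stops in a run of T. The annotation names no polymerase. The rrk1 gene was placed in the RNA polymerase III group by analogy with budding yeast and humans, where that enzyme makes RNase P RNA. Which polymerase reads rrk1 in fission yeast was not established here, so the placing was not tested and may be wrong. Every comparison of group medians below depends on it.

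The stretches around the starts of the genes are shown first because the summits differed in where they lay relative to these starts. They are credited to RefSeq (ASM294v3), 5′ to 3′ on the strand of each gene. Capitals mark matches to TATANA in the 40 bp before the gene, to GTTCGANNC (the core of a B box) in its first 150 bp, and to TTTTT in the 50 bp after it. N is any base, and overlapping matches are merged. For snu6 (I:2562261-2562449, minus strand) and srp7 (I:4268632-4268931, plus strand) the stretch runs from 30 bp before the gene to 15 bp past it.
snu6: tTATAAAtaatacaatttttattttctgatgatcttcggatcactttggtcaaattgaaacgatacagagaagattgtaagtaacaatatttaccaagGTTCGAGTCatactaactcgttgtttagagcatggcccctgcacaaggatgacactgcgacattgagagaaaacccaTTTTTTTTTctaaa
srp7: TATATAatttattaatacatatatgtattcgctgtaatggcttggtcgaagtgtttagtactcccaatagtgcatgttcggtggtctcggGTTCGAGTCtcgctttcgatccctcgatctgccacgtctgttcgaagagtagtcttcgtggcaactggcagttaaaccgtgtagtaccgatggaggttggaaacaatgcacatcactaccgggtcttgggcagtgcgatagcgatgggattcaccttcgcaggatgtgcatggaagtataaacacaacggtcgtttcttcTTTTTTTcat

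For the other genes the 40 bp before the gene and its first 20 bp are shown, with only TATANA matches in capitals. They are snu1 (II:3020165-3020224, plus strand), snu2 (I:959537-959596, minus strand), snu4 (II:467596-467655, minus strand), snu5 (II:3236827-3236886, plus strand) and rrk1 (III:990815-990874, minus strand).
snu1: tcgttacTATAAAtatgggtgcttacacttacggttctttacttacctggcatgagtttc
snu2: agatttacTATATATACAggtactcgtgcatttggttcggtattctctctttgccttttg
snu4: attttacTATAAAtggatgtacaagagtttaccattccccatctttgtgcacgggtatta
snu5: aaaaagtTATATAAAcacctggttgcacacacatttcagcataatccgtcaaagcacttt
rrk1: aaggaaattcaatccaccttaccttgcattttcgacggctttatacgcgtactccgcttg

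A TATANA match began between 28 and 33 bp before the gene in every snRNA gene and 30 bp before srp7, and there was none before rrk1. The 40 bp searched before rrk1 lie inside pre10, a protein-coding gene on the opposite strand that overlaps the start of rrk1. On the strand of the gene TATANA was present in 12.3% of the 40 bp windows before all annotated genes and in 48.0% of those before tRNA genes. On either strand the shares were 16.2% and 54.4%. The B box core was found on the gene strand in snu6 and srp7, at base 69 and base 61, and in neither strand of the whole of the other 5 genes. In snu6 it lay in the annotated intron, which spans bases 47 to 96. The first 150 bp held this core on either strand in 1.70% of all annotated genes and in 77.2% of tRNA genes. It was held in 0 of 36 5S rRNA genes and in 0 of 66 snoRNA genes. A T run began 2 bp past snu6 and 6 bp past srp7, and none lay on either strand within 50 bp past the other 5. That window held a run on either strand in 39.8% of all genes. The share was 95.9% at tRNA genes, 58.3% at 5S rRNA genes and 51.5% at snoRNA genes. Such matches describe the letters only. None of the 7 genes had a second copy of 50 bp or more at 90% identity or above elsewhere on the 3 chromosomes.

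All 7 genes had a Cnd2 summit inside them or within 500 bp, where 13.2% of all annotated genes did. Among genes of at most 893 bp, the length of the longest member, the share was 12.5%. For tRNA genes it was 74.3%, for 5S rRNA genes 77.8%, and for snoRNA genes, which are read mostly by RNA polymerase II, it was 39.4%. The tRNA share includes genes in the centromeres. Outside them, 110 of 116 tRNA genes had a near summit. The snu4 summit was the 1 summit inside its gene, which was so at 5% of all annotated genes. Each member had a peak of its own, and no second summit within 500 bp. The most distant summit was that of snu2, at 444 bp, and the next peaks outside the limit lay 1119 bp from snu2 and 1321 bp from rrk1.

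**Figure D1:**
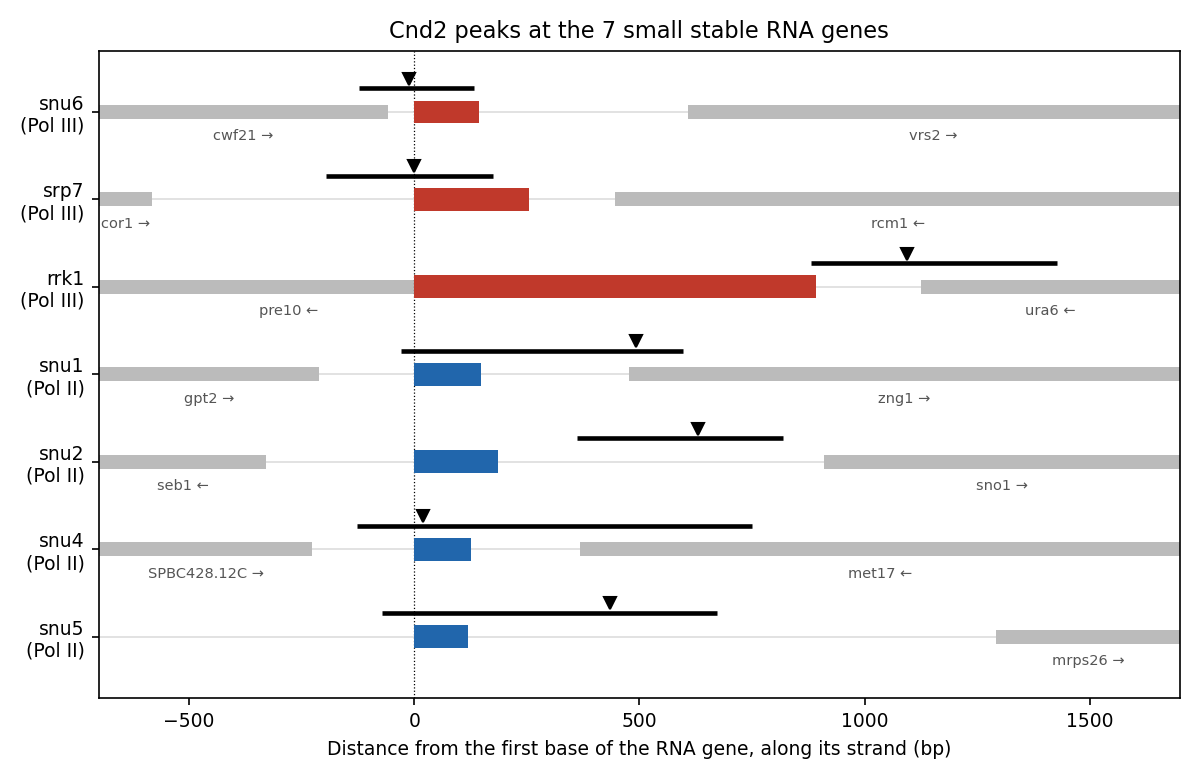
Cnd2 peaks at the 7 genes, each drawn along its own strand with its first base at 0 (x axis, bp). Red and blue boxes are the RNA genes, grey boxes protein-coding genes with arrows for their direction, black bars the peaks and triangles their summits. The summits of snu6, srp7 and snu4 lie within 20 bp of the start of the gene, and the other 4 lie 202 to 444 bp past its end.

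The peaks at snu6 and srp7 were narrow and sat over the start of the gene. The snu6 gene (SPSNRNA.06, I:2562276-2562419, minus strand) lay under a peak of 255 bp at I:2562287-2562541, with its summit 11 bp before the first base. The peak reached 122 bp before the gene and ended 11 bp short of its 3′ end. The srp7 gene (SPNCRNA.98, I:4268662-4268916, plus strand) lay under a peak of 372 bp at I:4268467-4268838, with its summit 1 bp before the first base. This peak reached 195 bp before the gene and ended 78 bp short of its 3′ end. Both summits thus lay between the TATANA match and the first base.

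The third gene of the RNA polymerase III group, rrk1, had its peak at the other end. The rrk1 gene (SPNCRNA.128, III:989942-990834, minus strand) is annotated with 893 bp, and its peak of 548 bp at III:989406-989953 had its summit 202 bp past the 3′ end. The peak covered the last 12 bp of the gene and reached 536 bp past it. The summit was also 31 bp past the 3′ end of ura6, the convergent uridylate kinase gene, so it lay in the gap between both 3′ ends. The peak extended beyond that gap into ura6. Counted from the first base of rrk1, the 3′ end of ura6 lay at 1125 bp and the peak ended at 1428 bp. Binding linked to rrk1 and binding linked to ura6 cannot be told apart here.

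At the genes of U1, U2 and U5 the summit lay past the 3′ end. For snu1 (SPSNRNA.01, II:3020205-3020353, plus strand) the peak at II:3020176-3020801 was 626 bp wide, covered the whole gene and had its summit 345 bp past the 3′ end. For snu5 (SPSNRNA.05, II:3236867-3236986, plus strand) the peak at II:3236796-3237539 was 744 bp wide, also covered the whole gene and had its summit 315 bp past the 3′ end. For snu2 (SPSNRNA.02, I:959370-959556, minus strand) the peak at I:958738-959194 was 457 bp wide, began 362 bp past the first base, so that it did not overlap the gene, and had its summit 444 bp past the 3′ end.

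The U4 gene differed from these in its summit but not in the reach of its peak. At snu4 (SPSNRNA.04, II:467489-467615, minus strand) the peak at II:466865-467743 was the widest of the 7, at 879 bp, and its summit lay inside the gene, 20 bp past the first base. It reached 128 bp before the gene and 624 bp past its 3′ end. The peaks of snu1, snu2 and snu5 ended 448, 632 and 553 bp past the 3′ end, so that all 4 peaks of the RNA polymerase II group, and that of rrk1, extended over 400 bp beyond the gene.

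The neighbourhood of the summits differed from gene to gene. The snu1 summit lay 17 bp inside the 5′ end of zng1, and the snu2 summit 281 bp before the 5′ end of sno1. The snu4 summit was 246 bp past the 3′ end of SPBC428.12C, on the same strand, and 348 bp past that of the convergent met17, a homocysteine synthase gene. The snu5 summit was 858 bp before mrps26, the nearest protein-coding 5′ end. The snu6 summit was 47 bp past the 3′ end of cwf21, so that it lay between that gene and snu6 on the same strand, and the srp7 summit was 448 bp past the 3′ end of the convergent rcm1. No summit lay within 500 bp of a tRNA, 5S rRNA or snoRNA gene, the closest being a tRNA gene 1672 bp from the snu2 summit. Long non-coding RNAs are annotated across the summits of snu1 (SPNCRNA.1573), snu4 (SPNCRNA.4732) and snu5 (SPNCRNA.6024). The part of these neighbours in the peaks was not tested.

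These positions were set beside those at tRNA, 5S rRNA and snoRNA genes. At the 110 tRNA genes outside centromeres that had a near summit, the summit lay a median of 0.5 bp before the first base (quartiles 7 bp before and 4.5 bp after), and within 50 bp of it at 94.5% of them. The snu6 summit, at 11 bp before, was just outside that middle range, and the srp7 summit, at 1 bp before, was inside it. At the 28 5S rRNA genes with a near summit the median was 19 bp after the first base. At the 26 snoRNA genes with a near summit it was 225.5 bp past the 3′ end (quartiles 125.25 and 303.25), and 76.9% of these summits lay downstream of the gene, against 1.82% at the tRNA genes. The downstream summits of snu1, snu2 and snu5, at 315 to 444 bp, lay beyond the upper quartile of the snoRNA genes, and that of rrk1 within the quartiles. The limit of 500 bp bounds all of these distances. These are descriptions of 1 library, and 3 or 4 genes were not tested against the classes.

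**Figure D2:**
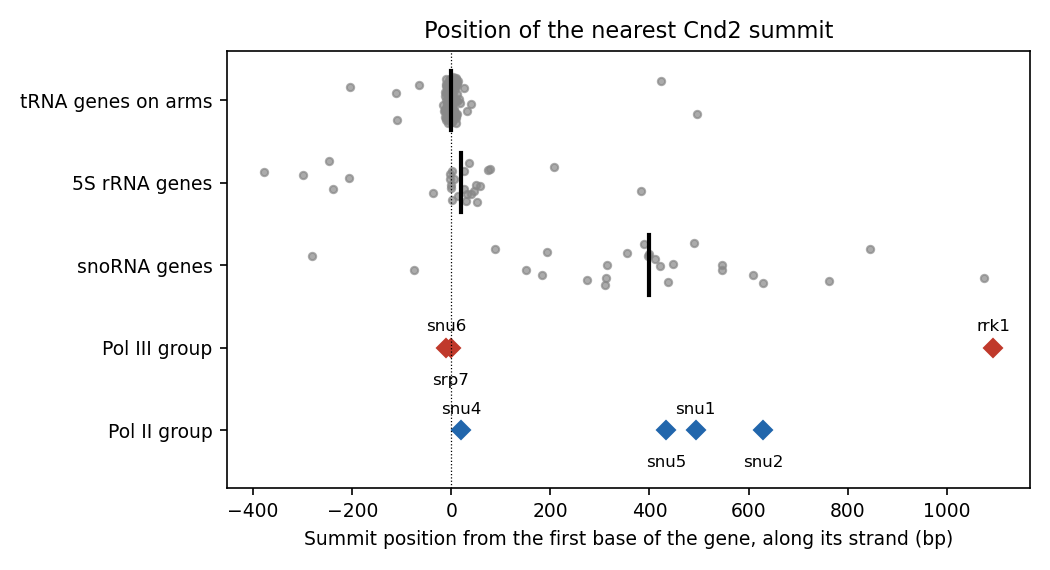
Position of the nearest summit from the first base of the gene (x axis, bp along its strand) at 110 tRNA, 28 5S rRNA and 26 snoRNA genes (grey points, black bar at the median) and at the members (diamonds). The srp7 summit lies within the quartiles of the tRNA genes and that of snu6 just upstream of them, snu4 lies 1 bp from the median of the 5S rRNA genes, and snu1, snu2, snu5 and rrk1 among or beyond the snoRNA genes.

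By the reach of the peaks snu6 and srp7 stood on one side and the other 5, snu4 included, on the other. At tRNA genes the peak reached a median of 154.5 bp before the 5′ end and 96 bp past the 3′ end, and at 5S rRNA genes 106 and 31.5 bp. At snoRNA genes it reached a median of 457.5 bp past the 3′ end (quartiles 360 and 586). More than 400 bp past the 3′ end was reached at 61.5% of the snoRNA genes, 7.27% of the tRNA genes and 30.4% of the 774 protein-coding genes with a near summit. The snu6 and srp7 peaks ended before the 3′ end of the gene, below the lower quartile of the tRNA genes (76.25 bp past it). Both genes, at 144 and 255 bp, are longer than the tRNA genes, so gene length adds to this difference.

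**Figure D3:**
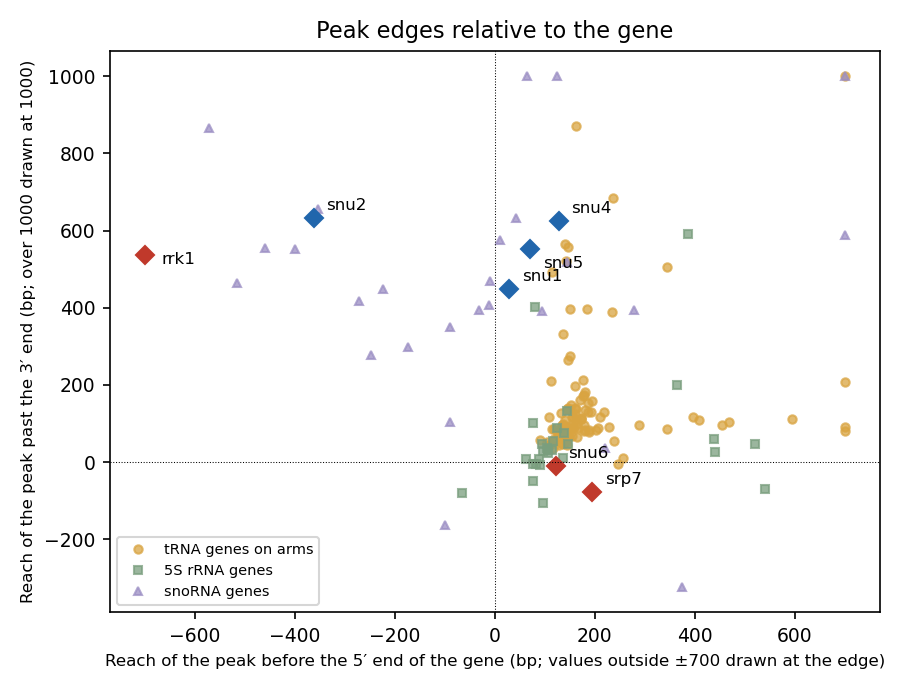
Reach of the peak before the 5′ end (x axis, bp) and past the 3′ end (y axis, bp) of tRNA, 5S rRNA and snoRNA genes and of the members (red for the RNA polymerase III group, blue for the RNA polymerase II group); values beyond the axis limits are drawn at the edge, as is rrk1, whose peak began 881 bp past the first base. The snu6 and srp7 peaks end inside the gene, and the other 5 end 448 to 632 bp past it.

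The peaks of the RNA polymerase III group were higher than those of the RNA polymerase II group in pileup, the number of ChIP fragments that cover the summit. Intervals are exact Poisson 95% intervals and cover counting error only. The pileup was 1175 fragments at srp7 (1109 to 1244), 801 at rrk1 (746 to 858) and 668 at snu6 (618 to 721). In the other group it was 608 at snu2 (561 to 658), 593 at snu4 (546 to 643), 527 at snu5 (483 to 574) and 451 at snu1 (410 to 495). The groups did not overlap, with medians of 801 and 560, a difference of 241 fragments. The median of 801 is the pileup of rrk1, the only member on chromosome III. On that chromosome the tRNA genes outside centromeres had pileups of 1098 to 2702, against a median of 987.5 for the whole class. How far the chromosome adds to the pileup of rrk1 was not tested. Without rrk1 the groups still did not overlap in pileup, with a difference in medians of 361.5 fragments. Neighbours in the order of pileup were not all apart by more than counting error. The ratio of snu6 to snu2, the closest pair across the groups, was 1.10 (exact binomial 95% interval 0.983 to 1.23), that of snu2 to snu4 was 1.03 (0.914 to 1.15) and that of snu4 to snu5 was 1.13 (0.999 to 1.27). The ratio of srp7 to rrk1 was 1.47 (1.34 to 1.61), that of rrk1 to snu6 was 1.20 (1.08 to 1.33) and that of snu5 to snu1 was 1.17 (1.03 to 1.33). With rrk1 counted in the RNA polymerase II group the pileups of the groups overlapped, since rrk1 lay above snu6.

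**Figure D4:**
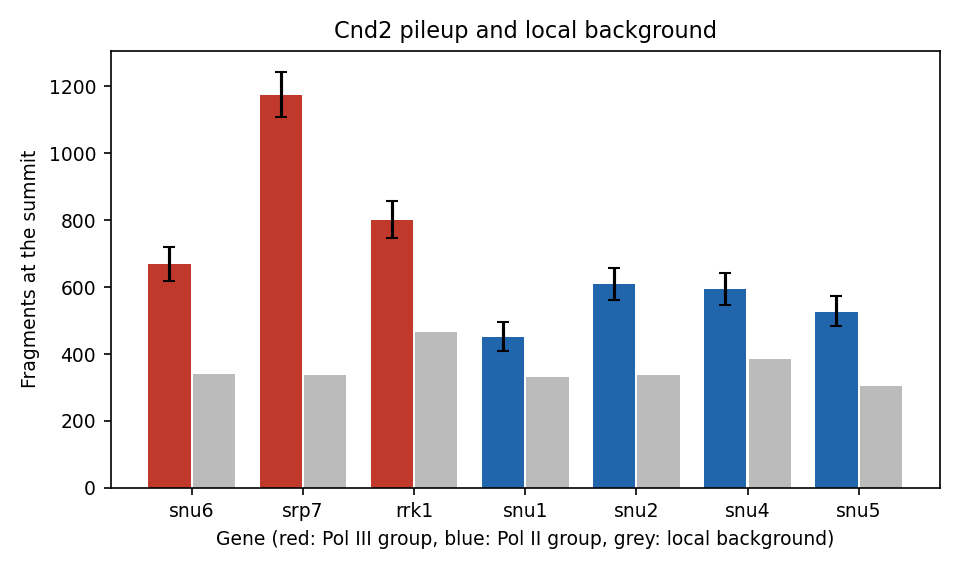
Pileup at the summit (red and blue bars, fragments, with exact Poisson 95% intervals) and local background at the same position (grey bars) for each gene. The 3 red bars stand at 668 to 1175 and the 4 blue bars at 451 to 608, while the background lies between 305 and 465.

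The local background, which the caller took from the scaled input, was 305 to 384 fragments at the RNA polymerase II group, 336 at srp7, 339 at snu6 and 465 at rrk1, the only member on chromosome III. The fold enrichment over it, as the authors' caller gave it, was 3.49 at srp7, 1.96 at snu6, 1.80 at snu2, 1.72 at rrk1 and snu5, 1.54 at snu4 and 1.36 at snu1. By fold the groups overlapped, because rrk1 stood below snu2. With the background held at 429 fragments or above they did not (1.56 to 2.73 against 1.05 to 1.42). That setting left the fold of rrk1 at 1.72, since its background was already higher, and lowered the fold of the other 6. It thus did not treat the genes alike. By fragments above the background the groups did not overlap. These numbered 839 at srp7, 336 at rrk1 and 329 at snu6, and 119 to 271 at the RNA polymerase II genes. The snu1 peak was the weakest, with a −log10 q of 8.11. When the background was held at 429 fragments, the mean over the length of the chromosomes, its fold became 1.05 and it no longer passed the weakest p of the list. The same held for 9.49% of all peaks. The other 6 stayed past it.

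Among the 664 peaks on the chromosomes, srp7 stood highest of the members. It ranked 149th by pileup and 72nd by fold. The rrk1 peak ranked 325th by pileup and the snu6 peak 427th, and the RNA polymerase II genes ranked 479th to 641st. The list had a median pileup of 786 fragments and a median fold of 1.72, so that snu6 and all 4 RNA polymerase II genes lay below the median in pileup. The median pileup was 987.5 fragments for tRNA genes outside centromeres (104 peaks, quartiles 842.5 and 1347), 892.5 for 5S rRNA genes (28 peaks) and 624 for snoRNA genes (23 peaks, quartiles 538 and 858.5). The srp7 pileup lay within the tRNA quartiles and those of snu6 and rrk1 below them, while snu2 and snu4 lay above the lower snoRNA quartile and snu5 and snu1 below it.

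The narrowest 2 peaks of the 7 were those of snu6 (255 bp) and srp7 (372 bp), followed by snu2 (457 bp), rrk1 (548 bp), snu1 (626 bp), snu5 (744 bp) and snu4 (879 bp). The group medians were 372 and 685 bp, and the groups overlapped through rrk1 and snu2. Without rrk1, and also with rrk1 counted among the RNA polymerase II genes, they did not overlap. The median width was 346.5 bp at tRNA genes outside centromeres, 320.5 bp at 5S rRNA genes and 556 bp at snoRNA genes, against 523 bp over the list. From the middle of the gene the summit lay 82.5 bp away at snu6, 128 bp at srp7 and 648 bp at rrk1, and 43 bp at snu4, 374.5 bp at snu5, 419 bp at snu1 and 537 bp at snu2. Both groups thus held near and far summits, with medians of 128 and 396.75 bp. The far one in the first group was rrk1, and the near one in the second was snu4. The length of rrk1 adds to its distance.

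**Figure D5:**
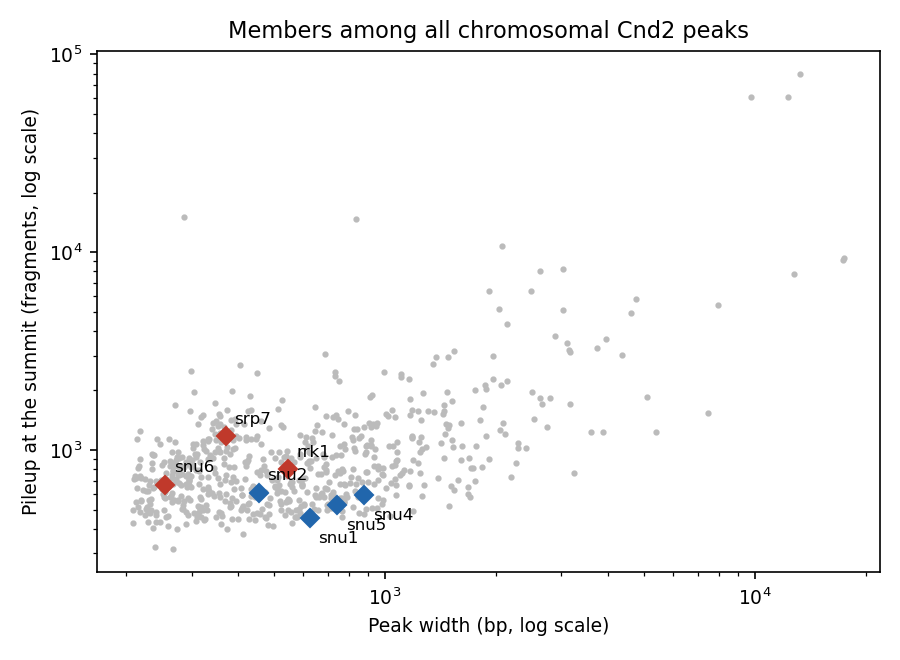
Peak width (x axis, bp, log scale) and pileup (y axis, fragments, log scale) of the 664 chromosomal peaks (grey) and of the members (red for the RNA polymerase III group, blue for the RNA polymerase II group). The snu6 and srp7 peaks are narrower than all 4 blue ones, and rrk1, at 548 bp, lies between snu2 and snu1 in width.

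The genes most like srp7 and snu2, the highest of each group, were sought among tRNA, 5S rRNA and snoRNA genes outside centromeres. Likeness was the summed absolute log2 difference in pileup and width, over 1 library, so it describes the shape of single peaks. For srp7 they were the leucine tRNA gene SPBTRNALEU.10 (1122 fragments, 366 bp), the 5S rRNA gene SPRRNA.11 (1179 fragments, 396 bp) and the threonine tRNA gene SPATRNATHR.05 (1213 fragments, 358 bp). All 3 had the summit inside the gene, 10 to 32 bp past its first base. For snu2 they were the snoRNA genes snoZ16 (581 fragments, 446 bp) and snR30 (533 fragments, 480 bp), with summits 233 and 437 bp past the 3′ end, and the arginine tRNA gene SPATRNAARG.01 (692 fragments, 559 bp), with its summit 2 bp past the first base.

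Other small stable RNA genes on a list had near summits in 9 of 12 cases, against 13.2% of all annotated genes and 39.4% of snoRNA genes, the class most of them belong to, and 5 of these 9 summits lay downstream of the gene. The U3 genes snu3 and snu32, whose RNA guides ribosomal RNA processing, had summits 166 and 293 bp past the 3′ end, at 1.31-fold and 2.34-fold. The gene mrp1, for the RNA of RNase MRP, had its summit 429 bp past the 3′ end at 1.56-fold, in the same peak as snoZ16. The telomerase RNA gene ter1 had a 4.12-fold summit 298 bp before its start, which lay inside the lysine tRNA gene SPATRNALYS.05. The highest fold was at snoU14 (16.1), with the summit inside the gene. The others near a summit were sno12, sno16, snR30 and snR10. Over the list the median fold at the near summits was 1.59, against 1.60 over all snoRNA peaks. Most of the listed peaks are also among those snoRNA peaks, so these medians are not independent.

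The genes for proteins that work with these RNAs were near a summit in few cases on each list. Of all protein-coding genes, 15.1% were. For RNA polymerase III subunits the count was 1 of 17, and for its transcription factors and regulator 2 of 10. For Sm and LSm ring proteins, most of which bind the snRNAs, the count was 2 of 15. It was 2 of 32 for other snRNP proteins, those of the U4/U6.U5 tri-snRNP included, 1 of 8 for signal recognition particle proteins and their receptor, and 0 of 9 for RNase P and MRP proteins. These counts leave out 3 genes that share a name or synonym with such a protein but whose product is another, sad1, pop1 and wat1, and they were left out after the values were seen. With them the counts are 3 of 33 and 0 of 11. Only genes matched by name or synonym in the annotation were counted. The 25 subunit names gave 17 genes and the 35 snRNP names 33. The 10 signal recognition particle names gave 8, and the 16 RNase P and MRP names gave 11. Names that matched no gene and names for the same gene were not told apart. The RNA polymerase III subunit gene rpc82 stood at 6.75-fold, the TATA-binding protein gene tbp1 at 1.55-fold and maf1, a repressor of RNA polymerase III, at 1.51-fold. The Sm genes smf1 and smd2 stood at 1.52-fold and 1.37-fold, and the gene of the beta subunit of the signal recognition particle receptor at 1.95-fold. In the snRNP list prp38 stood at 2.70-fold, with the summit 327 bp before the gene, and prp3 at 1.26-fold. The gene sad1, which encodes a spindle pole body protein in fission yeast, stood at 5.07-fold. Protein-coding genes with a near summit had a median fold of 1.65 over 510 peaks.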

How the data were processed

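Cnd2-HA ChIP and input were sequenced from mitotic cells, 1 library each. The submitters' processing notes name BWA 0.7.12, MACS2 2.1.0 and build ASM294v2. MACS 2.1.0.20150731 called the peaks from paired-end fragments, with the input as control, per the file headers (q cutoff 0.05, at most 1 fragment kept per position, fragment length 208 bp, windows of 1000 and 10000 bp for the local background). Duplicate removal took 34.7% of ChIP and 10.4% of input fragments, which can lower tall, narrow peaks by an amount not measured here. Deposited values are the pileup, a signal (fragment coverage at the summit; the larger library, the input, was scaled down, per the file headers), the fold enrichment, a ratio to the local background, and the −log10 of the p-value and q-value. Width is in bp in the deposited file. The background at a summit was recovered from pileup and fold with a pseudocount of 1; a Poisson p computed with it was within 0.0034 of the deposited −log10 p-value at 579 peaks. The header's effective genome size of 1.87e+09 exceeds the 12.6 Mb of the 3 chromosomes, which lowers the background the caller allows.

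Genes came from RefSeq's ASM294v3, a later release. Coordinates of peaks are the authors', those of genes RefSeq's, and none were converted. As a check, a summit was found at most 100 bp away for 117 of 171 tRNA genes, and for 1 to 9 after shifts of 200 to 5000 bp. The median summit at tRNA genes outside centromeres (the longest stretches without a protein-coding gene) was 1 bp from the 5′ end on the plus strand and 3 bp on the minus strand, both towards higher coordinates. The 4 peaks on a sequence named MTR were not used.

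For each gene the nearest summit within 500 bp was taken. Groups were compared by their values only, since genes of 1 library are not replicates. Members, lists and comparisons were chosen with earlier results of these data known. Named besides the members were the neighbouring protein-coding genes, up to 3 genes of the highest fold per list (for the small RNAs more, chosen after their values were seen) and the 3 most like genes. The motifs, the class quartiles, and the distances of 50, 200 and 400 bp were also chosen after the data were seen. Distances were tested on simulated data. The tools were matplotlib 3.10.9, scipy 1.17.1, pandas 2.3.3 and numpy 2.4.6 under Python 3.11.15.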

Additional observations from a re-analysis of the deposited data

How the results depend on the processing

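No paired analysis was possible because each group has 1 library and no result comes from a test. All 7 genes had a summit within 1000 bp. Under overlap of the peak with the gene there were 6, without snu2. With −log10 q of at least 10, or with the background held (429 fragments or above), there were also 6, but without snu1. When the fold had to reach the list's median there were 5, of which 2 were RNA polymerase II genes. Within 250 bp there were 4, of which 1 was an RNA polymerase II gene. Inside the gene there was 1, snu4, with 0 of the RNA polymerase III group.

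The differences are medians of the RNA polymerase III minus the RNA polymerase II group. None changed sign. That in pileup (241) was 121 fragments above background, 0.33 in fold, 0.42 in fold with the background held, and 328.5 with rrk1 moved to the other group. With the background held the groups did not overlap in fold, unlike in the deposited fold, but holding it lowered the fold of every member except rrk1. The difference in width (−313 bp) was −372 with −log10 q of at least 10 or with the background held, and −312.5 with rrk1 moved. That in distance from the middle (−268.75 bp) was −246.5, −246.5 and −313.75 in these settings, −452.5 from the 5′ end and −128 from the 3′ end. Under leave-one-out of members these ranged from 174.5 to 428, from −372 to −225 and from −291.5 to −8.75. The last value was without snu6, and without srp7 it was −31.5, so that the difference in distance rested on these genes. Taking the highest near peak, or leaving out members near a tRNA or 5S rRNA gene, changed nothing, because no member had a second peak or such a gene. Leaving out members within 500 bp of a coding 3′ end gave no value, because all 3 genes placed in the RNA polymerase III group are. The held background and the move of rrk1 were chosen after the data were seen.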

Other observations

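Peaks beside the members, not used in any comparison, were higher than the member's own peak at 2 genes, snu2 and snu4. Around snu2, a 826-fragment peak (2.42-fold, 277 bp wide) lay 2199 bp past the gene, at the glutamate tRNA gene SPATRNAGLU.02, and a 925-fragment peak (1.78-fold) lay 1119 bp before it, inside seb1. Beside snu4, a 1046-fragment peak (2.84-fold) lay 3261 bp past the gene. Before srp7 there were peaks of 923 and 446 fragments at 3519 and 4603 bp, and before rrk1 one of 560 fragments (1.26-fold, 219 bp wide) at 1321 bp. No other peak lay within 5 kb of snu1, snu5 or snu6.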
